A study of Mus musculus with 2 samples.

Results

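The 10 genes described here encode parts of the JAK-STAT pathway of cytokine signaling in T cells, namely the feedback inhibitors *Socs1*, *Socs2*, *Socs3* and *Cish*, the transcription factors *Stat3*, *Stat5a* and *Stat5b*, the kinases *Jak1* and *Jak3*, and the serine/threonine kinase *Pim1*. They were chosen by name with earlier results of the same arrays known, so their values are a description and carry no test. A gene's level was read from the brightest, on average, of its probe sets annotated with exactly 1 gene symbol, and 9 of the 10 genes had such a probe set, out of 19938 genes in all. *Jak3* had none, since its probe set is shared with *Insl3*. The values come from 2 microarrays of live CD3+CD4+ T cells sorted by FACS from the pancreatic lymph nodes (PLN) of 8-week-old NOD mice carrying the BDC T cell receptor transgenes, which give most CD4+ T cells a receptor for a β cell antigen. One array holds cells taken 48 hours after nondepleting anti-CD4 antibody (ND αCD4, clone YTS177), and the other holds cells taken 48 hours after isotype control Ab (clone 2A3). Both groups thus share the strain, the transgenes, the age, the time and the sort, and the methods state that PLN of several mice were pooled. The number of the BDC clone differs between labels and methods, and the labels place the age and the antibody each under the other's heading.

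In the canonical pathway, a cytokine brings its receptor chains together, the attached Janus kinases phosphorylate the receptor, and STAT proteins dock, are phosphorylated and move to the nucleus. SOCS proteins are induced by STATs and close the loop by blocking the kinases or the docking sites. In T cells, IL-2 and IL-7 act through Jak1, Jak3 and STAT5, IL-6 and IL-21 act largely through STAT3, and *Pim1* is a cytokine-induced gene whose kinase promotes survival and growth.

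The promoter sequences of 3 of the genes are shown because these genes span the pattern described below, with *Socs3* and *Pim1* higher after ND αCD4 and *Cish*, a classical STAT5 target, at nearly the same level. Each runs from 250 bases before to 30 bases after the RefSeq transcript start on GRCm38.p6, 5′ to 3′, and capitals mark the STAT motif TTCNNNGAA, a palindrome that reads the same on both strands. The windows are chr11:117969337-117969616 on the minus strand for *Socs3*, chr17:29490535-29490814 on the plus strand for the upstream start of *Pim1*, and chr9:107296409-107296688 on the plus strand for *Cish*.
Socs3: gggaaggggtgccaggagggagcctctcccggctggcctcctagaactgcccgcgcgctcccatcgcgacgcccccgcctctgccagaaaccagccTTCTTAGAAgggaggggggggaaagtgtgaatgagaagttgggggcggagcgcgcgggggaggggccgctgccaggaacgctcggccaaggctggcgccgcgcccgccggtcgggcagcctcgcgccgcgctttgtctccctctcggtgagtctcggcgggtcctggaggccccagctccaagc
Pim1: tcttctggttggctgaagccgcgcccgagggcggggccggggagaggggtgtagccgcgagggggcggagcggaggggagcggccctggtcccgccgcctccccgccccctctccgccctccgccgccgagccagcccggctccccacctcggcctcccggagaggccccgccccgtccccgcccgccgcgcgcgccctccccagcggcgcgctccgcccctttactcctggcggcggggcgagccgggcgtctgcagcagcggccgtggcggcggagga
Cish: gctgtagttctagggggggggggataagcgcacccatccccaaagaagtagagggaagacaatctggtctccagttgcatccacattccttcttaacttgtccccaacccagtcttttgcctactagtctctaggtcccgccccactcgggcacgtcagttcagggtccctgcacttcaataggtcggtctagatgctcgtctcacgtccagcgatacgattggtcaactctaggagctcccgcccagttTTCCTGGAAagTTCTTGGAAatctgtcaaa
The *Socs3* window held 1 match, TTCTTAGAA, which begins at position -154 from the start. The *Cish* window held 2 matches that do not overlap, TTCCTGGAA at position 1 and TTCTTGGAA at position 12 of the transcript. Neither *Pim1* start had a match in its window. Windows were found for 9 of the 10 genes, all but *Socs2*, and of these only *Socs3* and *Cish* held the motif. Some genes had more than 1 start, and 2 of the 12 windows of these 9 genes held the motif. Of all 32851 such windows in the table, 7.83% held it at least once and 0.408% held it at least 2 times. The same motif with 1 more base in its spacer, also a palindrome, was in 6.50% of all windows and in no window of the 9 genes. A match is a stretch of letters and was not tested for binding.

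The deposited values are log2 signals per probe set, and a difference is given as the log2 ratio, ND αCD4 minus isotype control. Detection meant a signal in 1 or both arrays over the level below which 95% of olfactory and vomeronasal receptor probe sets lie, which was 7.56 in the ND αCD4 array and 7.64 in the isotype control array. All 9 measured genes exceeded it in both arrays. Differences of 1.5-fold or more were counted as higher or lower. With 1 array per condition there is no replicate check and no p value, and precision is limited by that number. As a measure of spread between probes, the SD of the log2 ratio within a gene was 0.0931. It was taken from the 536 genes with 2 detected probe sets and does not cover differences between mice. In a sorted pool, fewer cells of a type and less RNA per cell cannot be told apart. The markers of CD4+ T cells were high in both arrays, with *Cd4* at 13.48 after ND αCD4 and 13.38 after isotype control Ab, and the median log2 ratio of 9 measured T cell markers was -0.01.

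*Socs3* and *Pim1* stood above the other genes of the group after ND αCD4. Of the 9 measured genes, 2 were at least 1.5-fold higher and none was at least 1.5-fold lower, beside 0.212% of 13222 detected genes that were higher and 1.01% that were lower. The remaining 7 genes lay between -0.20 and 0.09. For 6 of these 7 the log2 ratio was smaller in size than the spread between probe sets of 1 gene. These 6 are 66.7% of the 9 measured genes, beside 53.5% of all detected genes below the same spread. The median log2 ratio of the 9 genes was 0.06, and it was -0.01 over all detected genes. The genes were listed with these ratios known, so the counts are not evidence about the group.

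**Figure D1:**
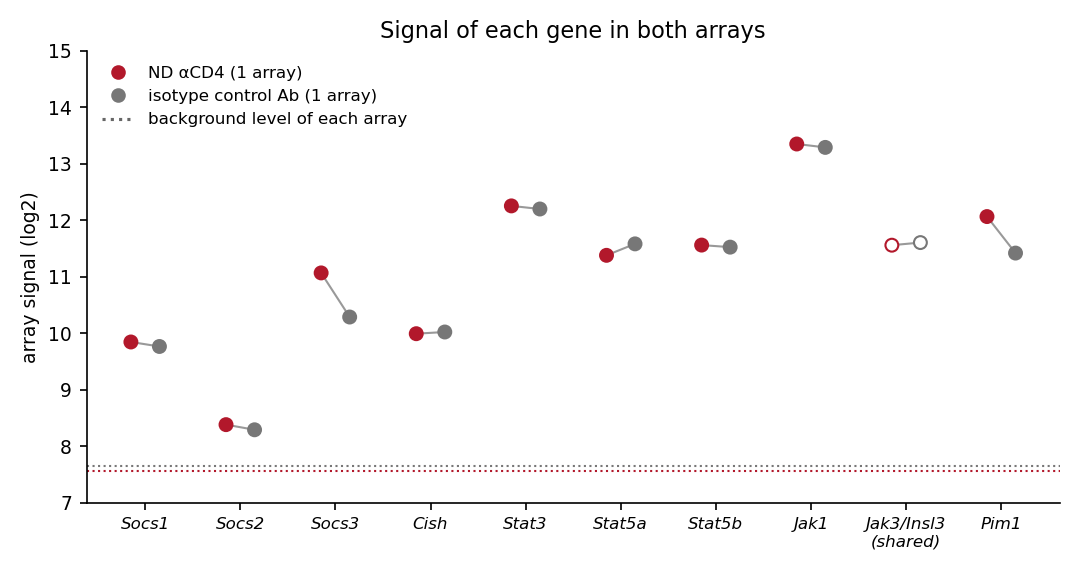
Array signal (log2) of each gene in the ND αCD4 array (red, left) and the isotype control array (gray, right), 1 array each, joined by a line per gene. *Socs3* (11.07 and 10.29) and *Pim1* (12.07 and 11.42) slope down to the isotype control, the other lines slope less, dotted lines mark the background of each array, and open circles mark the probe set shared by *Jak3* and *Insl3*. Heights cannot be ranked between genes, whose probes differ.

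Among the feedback inhibitors, *Socs3* was the gene that differed. SOCS3 binds receptors such as gp130 and shuts off STAT3 signaling. *Socs3* had a signal of 11.07 in the ND αCD4 array and 10.29 in the isotype control array, a 1.72-fold higher level with a log2 ratio of 0.78. Its ratio was the 12th highest of the 13222 detected genes. A second, dimmer probe set annotated to *Socs3* read 8.74 after ND αCD4 and 8.42 after isotype control Ab, a log2 ratio of 0.32. Both probe sets were thus higher after ND αCD4, but by unequal amounts, and their mean gave 0.55, which is short of 1.5-fold. The position and strand of the probes of the dimmer one were not examined.

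The other inhibitors were close to level. *Cish* encodes CIS, which is induced by STAT5 and restrains IL-2 and TCR signaling, and it read 9.99 after ND αCD4 and 10.02 after isotype control Ab, a log2 ratio of -0.03. *Socs1*, whose product inhibits JAK kinases downstream of IFN-γ and common gamma chain cytokines, read 9.85 after ND αCD4 and 9.77 after isotype control Ab, a log2 ratio of 0.08. *Socs2*, best known as a brake on growth hormone signaling, read 8.38 after ND αCD4 and 8.29 after isotype control Ab. Its log2 ratio was 0.09, and its second probe set (8.45 after ND αCD4 and 8.20 after isotype control Ab) gave 0.25. The log2 ratio of *Socs3* exceeded that of *Cish* by 0.81, that of *Socs1* by 0.70 and that of *Socs2* by 0.69. *Cish* and *Socs3*, the only genes of the group with the TTCNNNGAA motif in the windows above, therefore had unlike ratios.

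The 4 SOCS genes outside the group also stayed near 0. *Socs4*, *Socs5*, *Socs6* and *Socs7* encode adaptors of ubiquitin ligases with less defined roles in T cells. Their log2 ratios ran from -0.11 for *Socs4* to 0.09 for *Socs6*, with a median of -0.01. None of them reached 1.5-fold.

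*Pim1* was the other gene past 1.5-fold. Its signal was 12.07 in the ND αCD4 array and 11.42 in the isotype control array, a 1.56-fold higher level with a log2 ratio of 0.65, the 23rd highest of all detected genes. It had 1 probe set annotated to it alone, so no second measurement within the arrays bears on it. *Pim2* and *Pim3* encode closely related kinases with overlapping substrates, and neither was higher. *Pim2* read 11.72 after ND αCD4 and 11.82 after isotype control Ab, and *Pim3* read 10.15 after ND αCD4 and 10.24 after isotype control Ab. Their log2 ratios were -0.10 and -0.09, so that *Pim1* exceeded *Pim2* by 0.75 and *Pim3* by 0.74.

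**Figure D2:**
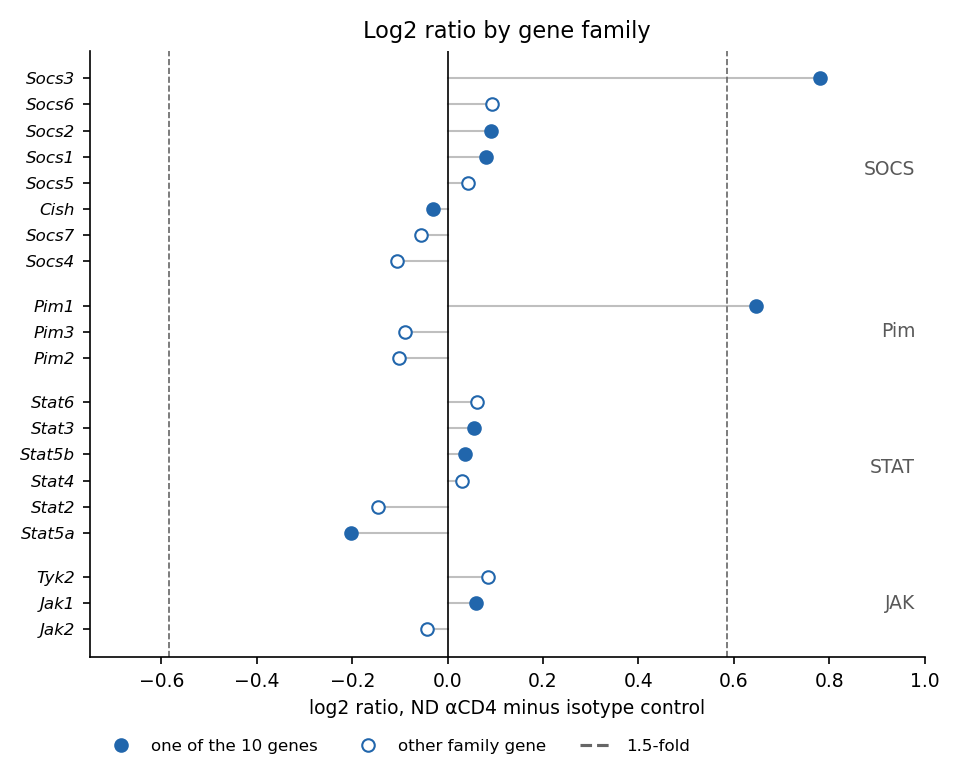
Log2 ratio, ND αCD4 minus isotype control, for the measured genes by family, 1 point per gene, with filled points for the 10 genes described (9 measured), open points for other family genes and dashed lines at 1.5-fold. *Socs3* at 0.78 and *Pim1* at 0.65 lie past the line, and the other 18 genes lie between -0.20 and 0.09.

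The STAT genes differed little, and the largest difference was in *Stat5a*. STAT5A and STAT5B are near-identical transcription factors that carry the IL-2 and IL-7 signal, and their genes lie side by side with *Stat3* on chromosome 11 of the mouse. *Stat5a* read 11.38 after ND αCD4 and 11.58 after isotype control Ab, a log2 ratio of -0.20 that did not reach 1.5-fold. Of all detected genes, 15.9% had a log2 ratio of greater size. *Stat5b* read 11.56 after ND αCD4 and 11.52 after isotype control Ab, a log2 ratio of 0.04. The ratio of *Stat5a* was lower than that of *Stat5b* by a difference of -0.24. How far each probe set also reads the RNA of the other gene was not tested. *Stat3*, the transcription factor downstream of IL-6 and IL-21, read 12.25 after ND αCD4 and 12.20 after isotype control Ab, a log2 ratio of 0.06.

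The STAT genes outside the group followed the same range. *Stat4*, which transmits IL-12 signals, and *Stat6*, which transmits IL-4 signals, had log2 ratios of 0.03 and 0.06. *Stat2*, a part of the type I interferon complex, was at -0.15 (11.37 after ND αCD4 and 11.51 after isotype control Ab).

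The kinases were level. *Jak1*, which serves nearly all of these receptors, was bright in both arrays, at 13.35 after ND αCD4 and 13.29 after isotype control Ab, with a log2 ratio of 0.06. In the RefSeq annotation *Jak1* overlaps the neighboring gene *Raver2*, and the position of its probes was not examined. The probe set shared by *Jak3*, the kinase bound to the common gamma chain, and *Insl3*, a hormone gene that overlaps the end of *Jak3*, read 11.56 after ND αCD4 and 11.61 after isotype control Ab. Its log2 ratio of -0.05 cannot be assigned to either gene. *Jak2* and *Tyk2*, the kinases of the IL-12 receptor and of others, had log2 ratios of -0.04 and 0.08. Of the 11 measured JAK, STAT, SOCS and Pim genes outside the group, 5 had a log2 ratio above 0 and 6 below 0, with a median of -0.04, and none reached 1.5-fold.

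**Figure D3:**
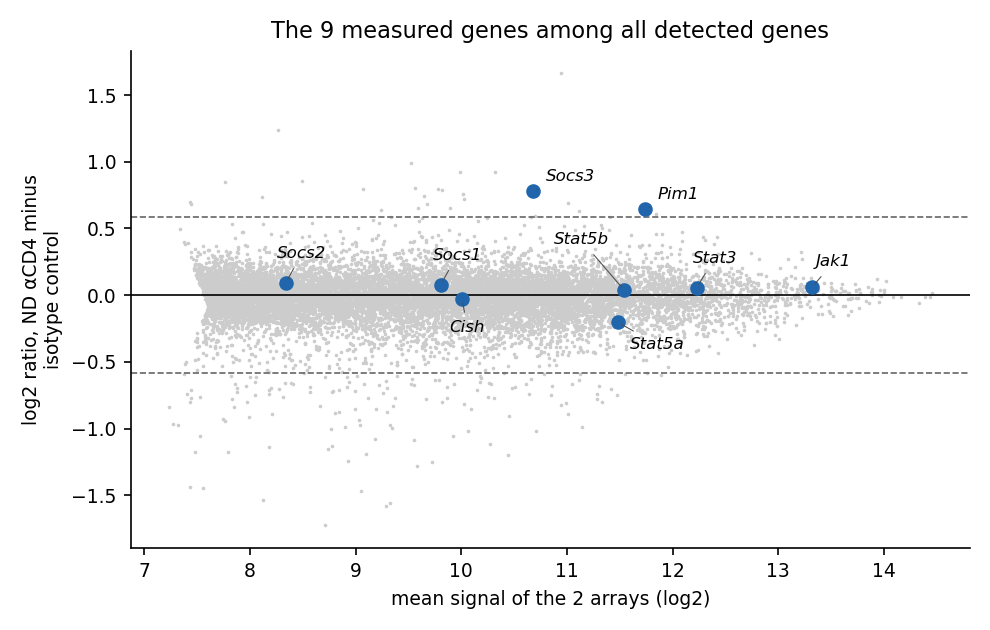
Log2 ratio (ND αCD4 minus isotype control) against the mean log2 signal of both arrays for 13222 detected genes (gray), with the 9 measured genes in blue and dashed lines at 1.5-fold. *Socs3* (0.78) and *Pim1* (0.65) lie above the upper line, where 28 genes lie in all, and the other 7 lie within the bulk of the genes.

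Genes upstream and downstream of the group were taken from lists of general knowledge, many of whose members also answer to TCR signals, and are given by count beside the shares of 0.212% higher and 1.01% lower above. Most cytokine genes themselves were at background. Of 15 cytokine genes, 10 did not exceed background in either array, among them *Il2*, *Il4*, *Il6*, *Il7*, *Il15* and *Il21*, and none of the other 5 reached 1.5-fold. *Osm*, which encodes the IL-6 family cytokine oncostatin M and is a known STAT5 target, read 9.56 after ND αCD4 and 9.25 after isotype control Ab (log2 ratio 0.31). *Lif*, of the same family, did not exceed background after ND αCD4 (7.47, against 8.00 after isotype control Ab) and was at least 1.36-fold lower in measured value. *Ifng* had a log2 ratio of 0.24.

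Receptor chains went both ways. Of 17 detected chains, 1 was higher and 1 was lower, with a median log2 ratio of 0.05. The IL-7 receptor chain gene *Il7r* was the higher one, at 12.14 after ND αCD4 and 11.54 after isotype control Ab. *Il2ra*, the high-affinity chain of the IL-2 receptor, was the lower one, at 10.82 after ND αCD4 and 11.42 after isotype control Ab, although *Il2ra* was short of 1.5-fold after lowess correction or quantile normalization. Below the size rule, the IL-12 receptor chain gene *Il12rb1* was at -0.46, the IL-6 receptor gene *Il6ra* at 0.38 and the IFN-γ receptor gene *Ifngr1* at 0.37. Of 12 other negative regulators none reached 1.5-fold, and the median was 0.01. The farthest from 0 were *Ptpn6*, which encodes the phosphatase SHP-1, at -0.34, *Pias3*, which encodes an inhibitor of STAT3, at 0.22, and *Ptpn11*, which encodes SHP-2, at -0.17.

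Listed STAT5 targets, STAT3 targets and Pim substrates had medians close to 0 as well. The lists do not record whether a STAT raises or lowers each target. Their counts and medians are therefore no measure of STAT activity. Of 29 detected STAT5 targets, 2 were higher (*Prf1* and *Il7r*) and 3 were lower (*Il2ra*, *Slc7a5* and *Tfrc*), with a median of -0.07. *Prf1*, which encodes the cytotoxic protein perforin, had a log2 ratio of 0.60, while the amino acid transporter gene *Slc7a5* and the transferrin receptor gene *Tfrc* had ratios of -0.68 and -0.63. *Tnfrsf9*, *Dusp6* and *Cdk6*, which encode the costimulatory receptor 4-1BB, an ERK phosphatase and a cell cycle kinase, were at -0.46, -0.42 and -0.40. Of 15 detected STAT3 targets, *Fos* was higher (0.65) and *Irf4* (-1.12) and *Birc5* were lower, with a median of 0.04. *Birc5*, which encodes survivin, did not exceed background after ND αCD4, and the bound on its difference, at least 1.47-fold lower, is short of the size rule. *Irf4*, a transcription factor gene induced by TCR signals, read 9.71 after ND αCD4 and 10.83 after isotype control Ab. *Junb*, of the AP-1 family, was at 0.56, the survival gene *Bcl2* at 0.27 and the TNF receptor gene *Tnfrsf1b* at -0.25. None of 10 detected Pim substrates reached 1.5-fold, and their median was 0.02. Pim kinases act on these substrates as proteins, so their RNA levels are no measure of Pim activity. Those farthest from 0 were *Cdc25a*, a cell cycle phosphatase gene, at -0.38, *Myc* at -0.31, and *Cdkn1b*, which encodes the cell cycle inhibitor p27, at 0.18.

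**Figure D4:**
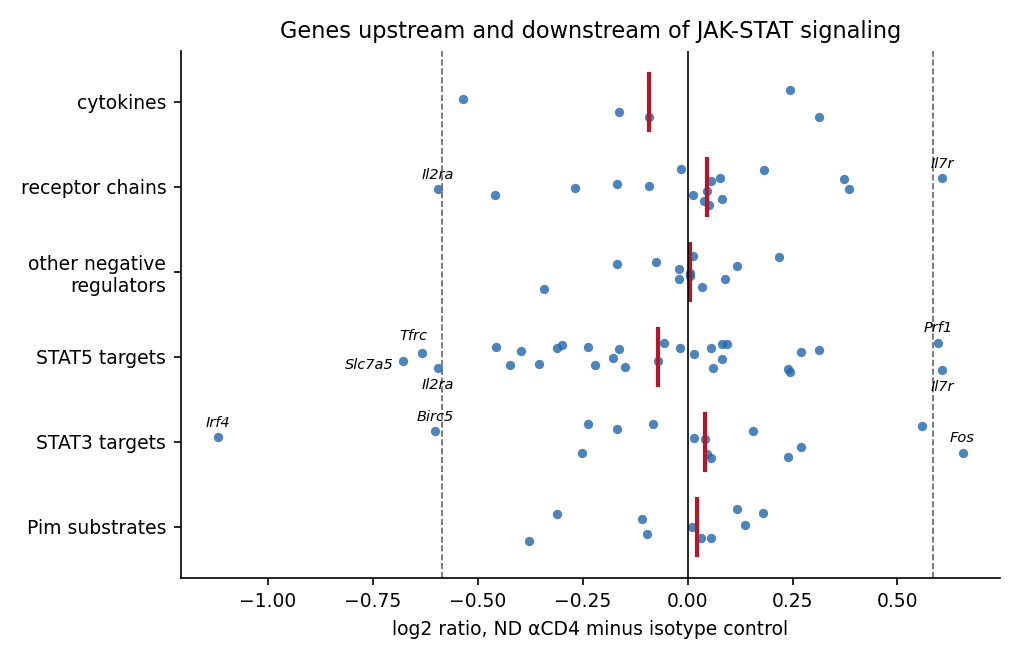
Log2 ratio, ND αCD4 minus isotype control, for detected genes in 6 lists, 1 point a gene, a red bar at each median, 0 as a solid line and 1.5-fold as dashed lines. The medians run from -0.09 for cytokines to 0.05 for receptor chains, and genes past 1.5-fold are named. Points are spread vertically within a list for legibility.

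Some early response genes and some markers of other cells were also higher after ND αCD4, while other early response genes were lower in measured value. Of 19 detected early response and handling genes, listed after the data were seen, 4 were higher (*Jun*, *Fos*, *Ppp1r15a* and *Rgs2*) and 1 was lower (*Hsph1*, a heat shock gene), beside 0.212% higher and 1.01% lower among all detected genes. The median log2 ratio of the list was 0.23, with 13 genes above 0 and 6 below. *Nr4a1* and *Egr1*, early response genes of TCR signaling, were among the 6, at -0.54 and -0.25. Among the 13 above 0, but short of 1.5-fold, were *Junb* at 0.56 and *Dusp1* at 0.44. *Fos* and *Junb* stand in both this list and that of STAT3 targets. *Jun* read 11.78 after ND αCD4 and 10.11 after isotype control Ab. Both CD8 genes were higher after ND αCD4. *Cd8a* was past the size rule, 1.65-fold higher, at 10.39 after ND αCD4 and 9.67 after isotype control Ab. *Cd8b1* was short of it, 1.37-fold higher, at 11.83 after ND αCD4 and 11.38 after isotype control Ab. The 4 globin probe sets, each shared by several globin genes, were between 2.21-fold and 2.54-fold higher after ND αCD4, and *Alas2*, the heme synthesis gene of red blood cells, exceeded background only after ND αCD4, at 7.74 against 7.46. None of 5 natural killer genes exceeded background in either array. None of 5 measured B cell genes reached 1.5-fold. *Cd79b* read 10.44 after ND αCD4 and 10.34 after isotype control Ab, and *Cd79a* did not exceed background after isotype control Ab. The summed linear signal of the 5 was 2312 after ND αCD4 and 2147 after isotype control Ab. Apart from *Cd79b*, the highest was *Pax5*, at 8.08 after ND αCD4 and 8.04 after isotype control Ab. The sum therefore rests largely on *Cd79b*. In the lists for plasma, myeloid, dendritic, neutrophil, pancreatic and stromal cells no gene reached 1.5-fold. For the 6 myeloid markers the summed linear signal was 1046 after ND αCD4 and 1001 after isotype control Ab, and 4 of the 6 did not exceed background in either array, so the sum is no measure of myeloid cells. The part of these cells and of handling in the values of *Socs3*, *Pim1* and listed targets such as *Prf1* was not tested.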

How the data were processed

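CD3+CD4+ T cells from PLN were profiled on 1 array for ND αCD4 and 1 for isotype control Ab, and for every probe set the authors deposited a log2 value. Affymetrix Expression Console is named in the submitters' processing notes, with version and normalization method not given in the sources used here. Log2 scaling was inferred from the range of 2.52 to 14.7 and the medians of 8.15 in both arrays. The methods name a later array version than the probe set identifiers, so probes are described only through the platform annotation of those identifiers. Of 35557 probe sets, 21789 had 1 symbol, 1621 had several and 12147 had none, and 21698 of the first kind matched RefSeq (GRCm38.p6) by gene identifier with 0 symbols changed. Probe sets without exactly 1 symbol were left out, except where named as shared.

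Background was the 95th percentile of 1210 receptor probe sets per array, and where 1 array lay below it the difference is only a bound. The genes, lists, size rule of 1.5-fold and alternatives were chosen with earlier results of these data known. Named were all listed genes, all other family genes and, per list of upstream or downstream genes, those past 1.5-fold and the 3 next in size. Genes of the early response list short of 1.5-fold were not named by this rule. The alternatives were 3 scalings (lowess fraction 0.3, 3 iterations), averaging a gene's probe sets, flooring at background, 2 other filters and a 2-fold and a looser size rule. The alternative for linear values did not apply. Promoter windows come from RefSeq. Scripts ran in Python 3.11.15 with pandas 2.3.3, numpy 2.4.6, matplotlib 3.10.9 and statsmodels 0.14.6.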

Additional observations from a re-analysis of the deposited data

Results flagged for a closer look

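Probe sets annotated with several genes were left out of the counts and medians above, and 4 of them that hold globin genes had a higher signal in the ND αCD4 array than in the isotype control array. The 2 probe sets of *Hba-a1* and *Hba-a2* were 2.23-fold higher (11.20 after ND αCD4 and 10.04 after isotype control Ab) and 2.21-fold higher (10.86 after ND αCD4 and 9.72 after isotype control Ab). The 2 probe sets of the *Hbb* genes were 2.46-fold higher (11.26 after ND αCD4 and 9.97 after isotype control Ab) and 2.54-fold higher (11.24 after ND αCD4 and 9.90 after isotype control Ab). Each is a single array against a single array, and both probe sets of a pair are annotated with the same genes.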

How the results depend on the processing

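The count of 2 higher genes became 1 when probe sets of a gene were averaged, since *Socs3* then had a log2 ratio of 0.55. It became 0 at a 2-fold rule, which 0.0151% of detected genes passed on the higher side. It was 2 under the other alternatives run, *Socs3* and *Pim1* in each case, including a size rule looser than 1.5-fold, which 1.51% of detected genes passed on the higher side. No gene of the group was counted as lower under any alternative run. The median of the measured genes ran from 0.06 to 0.08. *Pim1* ran from 0.64 to 0.66, *Stat5a* from -0.20 to -0.19, and no gene of the group changed sign. After lowess correction or quantile normalization *Il2ra* was short of 1.5-fold, which left 0 receptor chains and 2 STAT5 targets lower. With values floored at background, or detection required in both arrays, 1 STAT3 target was lower. No paired analysis was possible because each condition has 1 array. With 1 array per condition, none of these ranges covers differences between mice, sorts or arrays.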
